A study of Mus musculus with 6 samples.

Results

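The genes described here are 10 core components of canonical Wnt signalling, 10 of the 26586 genes in the count table. They were chosen by name: Lrp5 and Lrp6, Apc, Axin1 and Gsk3b, Ctnnb1, and Tcf7, Tcf7l1, Tcf7l2 and Lef1. All 10 passed the filter on low counts. They were measured in 6 RNA-seq libraries from 3 ovariectomized mice. Each mouse carried Axin2rtTA, in which the Axin2 promoter drives a doxycycline-dependent activator, and tetOH2BJGFP, a histone H2B fusion to GFP that this activator switches on. Both fractions share these transgenes, the ovariectomy at 4 weeks, the 2 weeks of rest and the doxycycline. Uteri were taken 4 days after doxycycline, at 6 weeks of age. GFP+ cells of the epithelial isolate form the fraction labelled Axin2+ and GFP- cells the fraction labelled Axin2-, with 3 libraries each, numbered by mouse. The labels mention, too, that cells from the mice were pooled, in which case the p-values would measure the spread between libraries of a pool.

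In canonical Wnt signalling, a Wnt protein binds a Frizzled receptor together with the co-receptor Lrp5 or Lrp6. Without that signal, a cytoplasmic complex built on the scaffolds Axin1 and Apc holds beta-catenin (Ctnnb1) while the kinase Gsk3b phosphorylates it, which marks it for destruction. With the signal, beta-catenin accumulates and binds the TCF/LEF factors on DNA. Beta-catenin also links cadherins to the cytoskeleton in epithelial cell junctions. Wnt signalling acts in uterine gland formation and in endometrial growth. Transcript levels do not measure the protein or the phosphorylation by which this pathway is mainly controlled.

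Coding stretches of several members show where these interactions lie. They were read from GENCODE M21 transcripts of GRCm38, the assembly named mm10, on the strand of the gene. The 4 TCF/LEF factors bind the same DNA motif through an HMG box, and a stretch of 72 bases of its coding sequence is shown to compare the paralogs whose levels are set side by side below. They lie at chr11:52256988-52257059 (minus strand) for Tcf7, chr3:131194677-131194748 (plus) for Lef1, chr6:72631254-72631325 (minus) for Tcf7l1 and chr19:55918934-55919005 (plus) for Tcf7l2, each within 1 exon. Capitals mark the 50 bases that are equal in all 4.
Tcf7: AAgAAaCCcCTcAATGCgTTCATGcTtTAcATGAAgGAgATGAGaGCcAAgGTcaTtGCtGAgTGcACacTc
Lef1: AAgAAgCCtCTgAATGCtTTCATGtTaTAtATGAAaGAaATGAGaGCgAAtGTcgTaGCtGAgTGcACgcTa
Tcf7l1: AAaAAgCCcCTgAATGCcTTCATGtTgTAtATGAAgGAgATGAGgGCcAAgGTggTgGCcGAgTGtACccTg
Tcf7l2: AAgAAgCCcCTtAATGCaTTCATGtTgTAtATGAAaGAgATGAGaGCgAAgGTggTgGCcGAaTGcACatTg
Between pairs of factors 79.2 to 86.1 percent of these bases are equal. Over all their annotated protein-coding transcripts the 4 factors share no identical run longer than 23 bases, and Lrp5 and Lrp6 share none longer than 22.

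In Ctnnb1, the stretch that carries the Gsk3b phosphorylation sites and, once phosphorylated, is read by the ubiquitin ligase lies at chr9:120950590-120950631 (plus strand). It is shown because it joins 2 of the members, beta-catenin and Gsk3b, and its capitals mark the codons of that degradation signal.
Ctnnb1: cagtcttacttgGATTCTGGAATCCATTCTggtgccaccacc
The intracellular tails of Lrp5 and Lrp6 carry proline-rich motifs that are phosphorylated when Wnt binds and then hold Axin. An example from each co-receptor is shown, at chr19:3585129-3585167 for Lrp5 and chr6:134450897-134450935 for Lrp6 (both minus strand), with the codons of the motif in capitals.
Lrp5: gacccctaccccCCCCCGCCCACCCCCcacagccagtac
Lrp6: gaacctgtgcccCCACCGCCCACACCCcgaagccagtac

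The libraries held between 49714402 and 59597315 reads in genes, and a member had between 775 reads (Lef1 in the library labelled Axin2+ of mouse 1) and 31216 reads (Ctnnb1 in that of mouse 2). Levels are given in CPM, counts scaled to library size with edgeR's TMM factors. Axin2, whose promoter drives the reporter, did not pass the test and was not higher in the fraction labelled Axin2+: its means were 361 ± 6.85 and 236 ± 67.7 CPM in the fractions labelled Axin2- and Axin2+ (SD, n = 3 each, as wherever a level carries ±). Its libraries did not overlap, and it was called lower by DESeq2 (adjusted p = 0.0260) and when mouse 3 of the fraction labelled Axin2+ was left out (edgeR adjusted p = 0.0290). Directions below are therefore those of the libraries as labelled. Both fractions are labelled as endometrial epithelium, but general epithelial markers summed to only 243 to 350.5 CPM in the libraries labelled Axin2-, against 2714 to 3909 CPM in those labelled Axin2+, and 15 of 15 were higher in the latter. Stromal fibroblast markers summed to 10591 to 21721 and 3316 to 4541 CPM, with 10 of 12 lower in the fraction labelled Axin2+. Smooth muscle and pericyte markers summed to 2662 to 6623 and 288 to 562 CPM, with 10 of 12 lower. Macrophage markers summed to 55.5 to 335 and 708 to 4109 CPM, with 12 of 12 higher, and endothelial markers to 211 to 266 and 445 to 782 CPM, with 8 of 12 higher. Without Sox17, the endothelial sums were 204 to 248 and 264 to 475 CPM, and Cdh5, which encodes the cadherin of endothelial junctions, had 139.7 ± 36.5 and 78.9 ± 20.8 CPM and did not pass (edgeR adjusted p = 0.0559). T and NK cell markers summed to 55.8 to 87.7 and 12.2 to 36.7 CPM, with 12 of 20 lower. Mesothelial markers summed to 189 to 239 and 218 to 635 CPM, with 5 of 8 higher and 1 lower, and ciliated cell markers to 21.7 to 24.8 and 10.95 to 19.1 CPM, with 2 of 6 higher and 1 lower. For comparison with these counts, 14.5 percent of all genes tested were higher and 12.8 percent lower. No defining marker of these lists was at 0 in all libraries of a fraction. The part of this cell mixture in the differences between fractions was not tested, and in bulk samples fewer cells of a type and less RNA per cell cannot be told apart.

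Of the 10 members, Lrp5 rose and Lrp6 and Tcf7l1 fell in the fraction labelled Axin2+, while 7 did not pass the edgeR quasi-likelihood test at an adjusted p under 0.05, which does not show that their levels were equal. Among all 16896 genes tested 27.3 percent passed, 14.5 percent as higher and 12.8 percent as lower, so 3 of 10 is near the background. Scaling by library size alone gave 3255 genes higher and 1573 lower over all genes, against 2447 and 2171. DESeq2 called 6 of the 10 members, 3 in each direction, where it called 36.1 percent of all genes. The median log2 fold change of the members was -0.04, and that of all genes tested was -0.01. In 7 of 10 members the CPM of the fractions did not overlap, which held for 47.2 percent of all genes tested. The 7 were Ctnnb1, Apc, Gsk3b and Lrp5, which were higher in the fraction labelled Axin2+, and Tcf7l1, Tcf7l2 and Lrp6, which were lower. Of these only Lrp5, Tcf7l1 and Lrp6 passed the test.

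**Figure D1:**
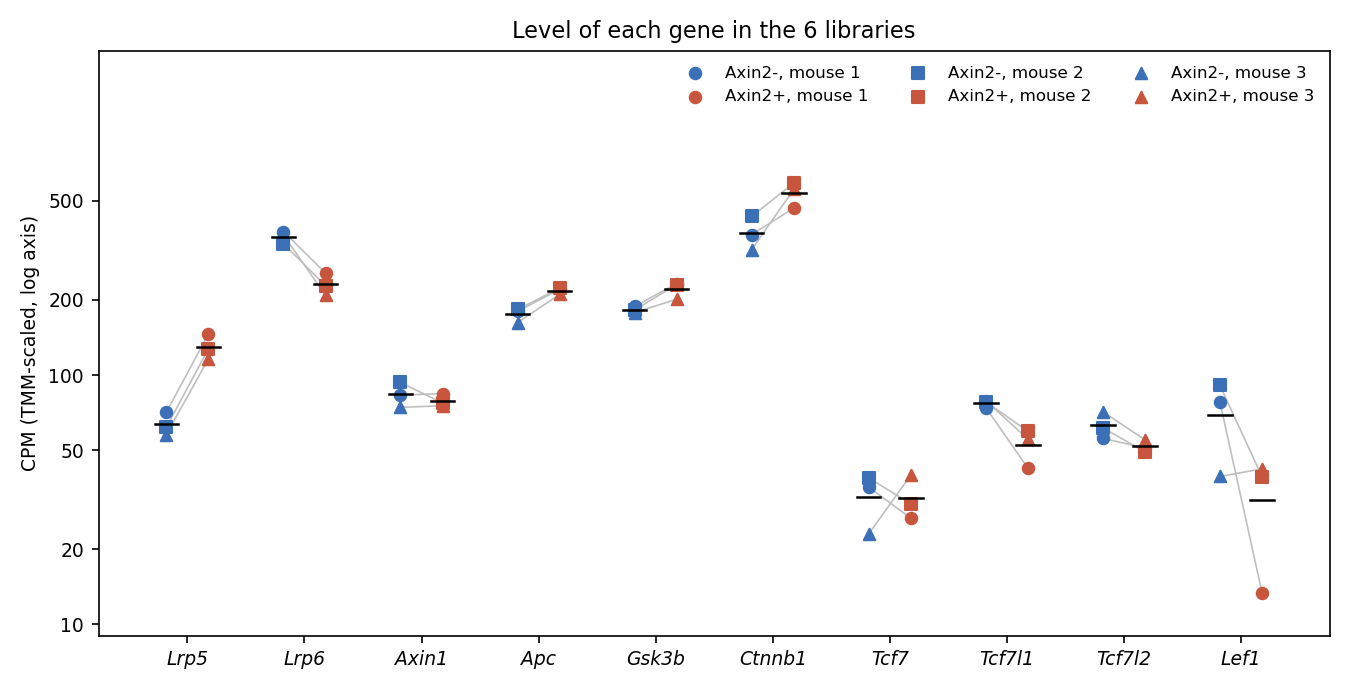
Level of each member in CPM (log axis) in the 6 libraries. Blue points are libraries labelled Axin2- and red points those labelled Axin2+, symbols mark the mouse, grey lines join libraries of the same mouse and black bars are means; Lrp5 lies higher and Lrp6 lower in every library labelled Axin2+, whereas Tcf7, Lef1 and Axin1 overlap between fractions.

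The co-receptors moved in opposite directions. Lrp5 (ENSMUSG00000024913, chromosome 19, 3584828 to 3686564, minus strand of mm10) stood at 70.8, 61.7 and 57.7 CPM in the Axin2- libraries from mice 1, 2 and 3, and at 146, 127 and 116 CPM in the Axin2+ libraries. Every library labelled Axin2+ was above every library labelled Axin2-. Its level rose 2.05-fold, or by 1.04 ± 0.14 (SE) on the log2 scale (edgeR adjusted p = 0.00209), and it passed under all 15 other settings tried. Lrp6 (ENSMUSG00000030201, chromosome 6, 134446476 to 134566965, minus strand) stood at 376, 336 and 365 CPM in the libraries labelled Axin2- and at 256, 228 and 209 CPM in those labelled Axin2+, again with no overlap. It fell by 0.64 ± 0.13 (SE) on the log2 scale, with an edgeR adjusted p of 0.0117. It passed under 14 of 15 settings, the exception being the fit that left out mouse 2 of the fraction labelled Axin2+ (adjusted p = 0.0615).

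The ratio of the co-receptors within each library is given as a description, since the opposite directions of Lrp5 and Lrp6 already fix that it differs. Levels per length were taken as RPKM, the CPM divided by the kilobases of annotated exons of the gene, since genes of different length cannot be compared in CPM. Within a library, the Lrp6 level per length was 3.78, 3.88 and 4.50 times that of Lrp5 in mice 1, 2 and 3 of the fraction labelled Axin2-. It was 1.25, 1.28 and 1.28 times that of Lrp5 in those labelled Axin2+. The mean ratios were 4.06 ± 0.389 and 1.27 ± 0.0165. Divided by the longest transcript in place of all exons, the mean ratios were 5.41 and 1.69.

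**Figure D2:**
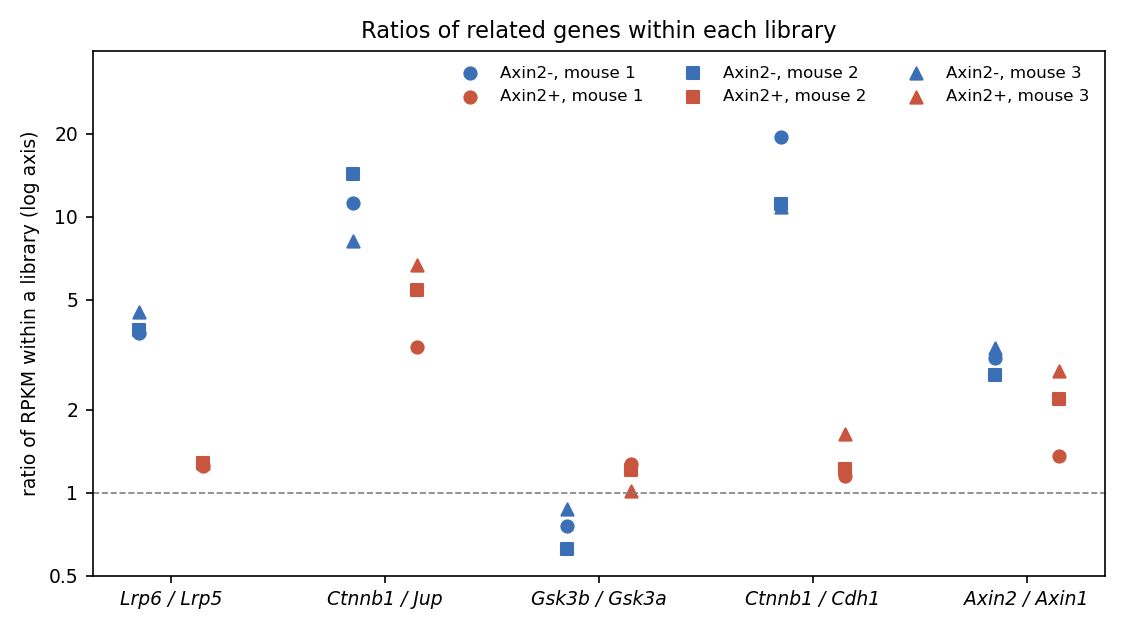
Ratio of the RPKM of related genes within each library (log axis), with blue points for libraries labelled Axin2- and red points for those labelled Axin2+. The dashed line marks equal levels; the Lrp6 to Lrp5 ratio falls from between 3.78 and 4.50 to between 1.25 and 1.28, and the Ctnnb1 to Cdh1 ratio from between 10.9 and 19.4 to between 1.15 and 1.63.

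Of the members of the destruction complex, Axin1, Apc and Gsk3b, none passed the edgeR test, and all lay within 1.25-fold between fractions. Axin1 (ENSMUSG00000024182, chromosome 17, 26138688 to 26195811, plus strand), the scaffold, stood at 83.1, 93.3 and 74.2 CPM in the libraries labelled Axin2- and at 84.2, 77.3 and 75.3 CPM in those labelled Axin2+. The fractions overlapped, with a log2 fold change of -0.08 ± 0.12 (SE, edgeR adjusted p = 0.655). Apc (ENSMUSG00000005871), the tumour suppressor that helps Axin hold beta-catenin, stood at 180, 183 and 162 CPM and at 221, 223 and 211 CPM in the same order. Its fractions did not overlap, but at 0.32 ± 0.11 (SE) on the log2 scale the difference missed the threshold (edgeR adjusted p = 0.0680). Gsk3b (ENSMUSG00000022812, chromosome 16, 38089001 to 38246084, plus strand) stood at 189, 183 and 178 CPM and at 233, 231 and 201 CPM, likewise without overlap. Its log2 fold change was 0.28 ± 0.11 (SE, edgeR adjusted p = 0.112). Apc passed in DESeq2 (adjusted p = 0.0319), and with scaling by library size alone both Apc (0.0289) and Gsk3b (0.0359) passed. That scaling moved the median of all genes tested by 0.17 on the log2 scale.

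Beta-catenin had the highest level per length of the 10 members in both fractions. Ctnnb1 (ENSMUSG00000006932, chromosome 9, 120929216 to 120960507, plus strand) stood at 71.7 RPKM on average in the fraction labelled Axin2- and 104 RPKM in that labelled Axin2+, above 97.5 and 98.6 percent of the genes tested. In CPM it stood at 366, 433 and 318 in mice 1, 2 and 3 of the fraction labelled Axin2- and at 468, 589 and 556 in those labelled Axin2+. The libraries did not overlap, and in both fractions mouse 2 had the highest level.

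Whether Ctnnb1 was called depended on the setting. Its log2 fold change of 0.53 ± 0.17 (SE) missed the threshold in the edgeR test used here, with an adjusted p of 0.0521. In the authors' deposited table its log2 fold change was 0.52 and its FDR 0.0472. The 15 other settings gave log2 fold changes of 0.45 to 0.70 with adjusted p between 0.0132 and 0.176, and 6 of them called it. Among these were DESeq2 (0.0132) and the fits that left out mouse 2 of the fraction labelled Axin2- (0.0314) or mouse 1 of that labelled Axin2+ (0.0445). Exons of Ctnnb1 overlap those of Ulk4 on the opposite strand, and whether counting used strand is not given in the sources used here. Ulk4 itself stood at 10.4 ± 0.427 and 10.2 ± 0.706 CPM, and the effect of the overlap on the Ctnnb1 counts was not tested.

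**Figure D3:**
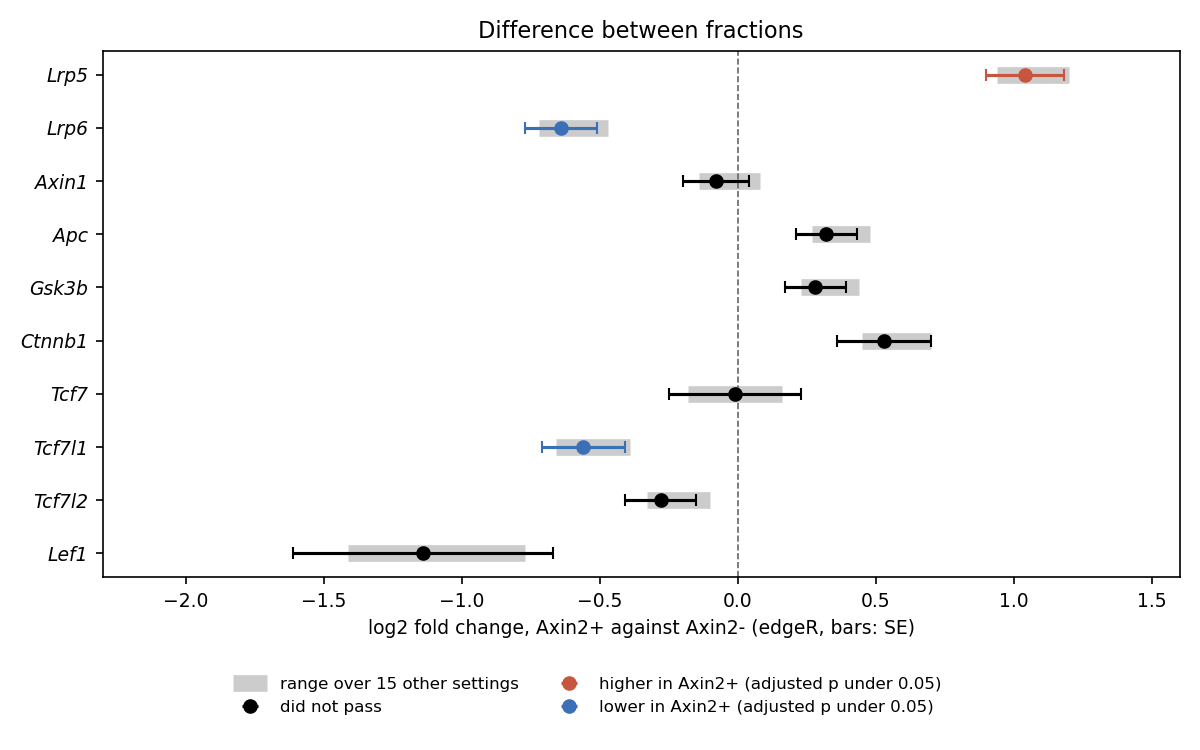
Log2 fold change of each member, fraction labelled Axin2+ against that labelled Axin2- (edgeR, bars are SE), with grey bands for the range over 15 other settings. Lrp5 (1.04) lies to the right and Lrp6 (-0.64) and Tcf7l1 (-0.56) to the left as the members that passed; Lef1 has the widest error bar (-1.14 ± 0.47).

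Among the TCF/LEF factors only Tcf7l1 passed the edgeR test, and its call was not stable to the loss of a library. Tcf7l1 (ENSMUSG00000055799, chromosome 6, 72626378 to 72789254, minus strand), known mainly as a repressor of Wnt targets that beta-catenin relieves, stood at 74.0, 78.2 and 78.9 CPM in the Axin2- libraries from mice 1, 2 and 3. The fraction labelled Axin2+ had 42.3, 59.4 and 55.3 CPM, all below the libraries labelled Axin2-. It fell by 0.56 ± 0.15 (SE) on the log2 scale, with an edgeR adjusted p of 0.0298. It did not pass with scaling by library size alone (adjusted p = 0.101). Of the 6 fits that each left out 1 library it passed in that without the Axin2+ library of mouse 2 (0.0474), and the others gave 0.0753, 0.0664 and 0.0810 without the libraries labelled Axin2- of mice 1, 2 and 3, and 0.0526 and 0.0520 without those labelled Axin2+ of mice 1 and 3. The antisense gene Gm15401, which overlaps its exons, had 7 and 18 reads in the 2 fractions, and the effect of the overlap was not tested.

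Tcf7l2 (ENSMUSG00000024985, chromosome 19, 55741820 to 55933654, plus strand), a main partner of beta-catenin in epithelia of the gut, had 55.7, 61.4 and 71.2 CPM in the libraries labelled Axin2- and 51.0, 49.1 and 54.96 CPM in those labelled Axin2+. The latter lay just below the former without overlap, and at -0.28 ± 0.13 (SE) on the log2 scale the difference missed the threshold (edgeR adjusted p = 0.150).

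Tcf7 and Lef1, also known as factors of T cells and as Wnt targets themselves, differed more among libraries of the same fraction. Tcf7 (ENSMUSG00000000782, chromosome 11, 52252371 to 52283014, minus strand) stood at 35.5, 38.6 and 23.0 CPM in the libraries labelled Axin2- and at 26.7, 30.4 and 39.7 CPM in those labelled Axin2+. The fractions overlapped, and the log2 fold change was -0.01 ± 0.24 (SE, edgeR adjusted p = 0.989), with a sign that changed between settings. Lef1 (ENSMUSG00000027985, chromosome 3, 131110471 to 131224356, plus strand) stood at 77.8, 90.8 and 39.2 CPM in the libraries labelled Axin2- and at 13.4, 39.1 and 42.04 CPM in those labelled Axin2+. The low library labelled Axin2- of mouse 3 lay within the range of the other fraction, and the library labelled Axin2+ of mouse 1 was the lowest of all 6. Its difference of -1.14 ± 0.47 (SE) on the log2 scale was not called by edgeR (adjusted p = 0.116) but was by DESeq2 (adjusted p = 0.0338). Leaving out mouse 1 of the fraction labelled Axin2+ gave -0.77. The antisense gene Gm43352 overlaps exons of Lef1, and the effect of that overlap was not tested.

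Summed T and NK cell markers were lower in the fraction labelled Axin2+, as was the mean of Lef1, and their part in the Lef1 difference was not tested. Among the libraries labelled Axin2-, Lef1 was highest in mouse 2, at 90.8 CPM, where the 20 T and NK cell markers found summed to 55.8 CPM, the lowest of that fraction. It was lowest in mouse 3, where they summed to 66.0 CPM. Among those labelled Axin2+ it was lowest in mouse 1, where they were highest, at 36.7 CPM. Cd3e, which encodes a CD3 chain of T cells, stood at 9.88, 3.34 and 5.42 CPM in the libraries labelled Axin2- and at 0.449, 0.0566 and 0.0744 CPM in those labelled Axin2+. Lck, another marker of that list, fell less, from 9.05 ± 3.06 to 4.07 ± 0.871 CPM. Ctnnb1, Tcf7 and Lef1 shared the order of mouse 2, mouse 1 and mouse 3 from high to low in the fraction labelled Axin2-, and Axin1 and Apc had it too. In the fraction labelled Axin2+ Tcf7 and Lef1 both increased in the order of mice 1, 2 and 3, while Ctnnb1 was highest in mouse 2.

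As shares of their summed level per length, Tcf7l1 took the most and Tcf7 the next most on average in both fractions. Tcf7l1 made up 42.2 ± 5.52 percent of the TCF/LEF sum in the fraction labelled Axin2- and 38.1 ± 3.08 percent in that labelled Axin2+. The share of Tcf7 was 28.4, 28.3 and 21.2 percent in the libraries labelled Axin2- and 35.9, 31.5 and 37.5 percent in those labelled Axin2+. These did not overlap, with a difference of 9.03 percentage points (exact two-sided permutation p = 0.1, the smallest possible with libraries taken as unpaired). Lef1 took 16.4 ± 4.94 and 9.78 ± 3.81 percent (exact permutation p = 0.3), and Tcf7l2 15.5 ± 3.57 and 17.1 ± 2.99 percent (exact permutation p = 0.5). For Tcf7l1 the exact permutation p was 0.4. These differences moved with single libraries: that of Tcf7l1 was -4.06 percentage points but -0.891 without mouse 3 of the fraction labelled Axin2-, and that of Tcf7l2 was 1.65 but -0.0699 without mouse 1 of that labelled Axin2+. The summed level was 47.6, 51.96 and 41.5 RPKM in the libraries labelled Axin2- and 28.3, 36.8 and 40.2 RPKM in those labelled Axin2+. All of the latter lay below the former (exact permutation p = 0.1). The higher share of Tcf7 thus stood beside nearly equal mean Tcf7 levels, 12.3 RPKM in each fraction, and a lower sum of the 4 factors.

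**Figure D4:**
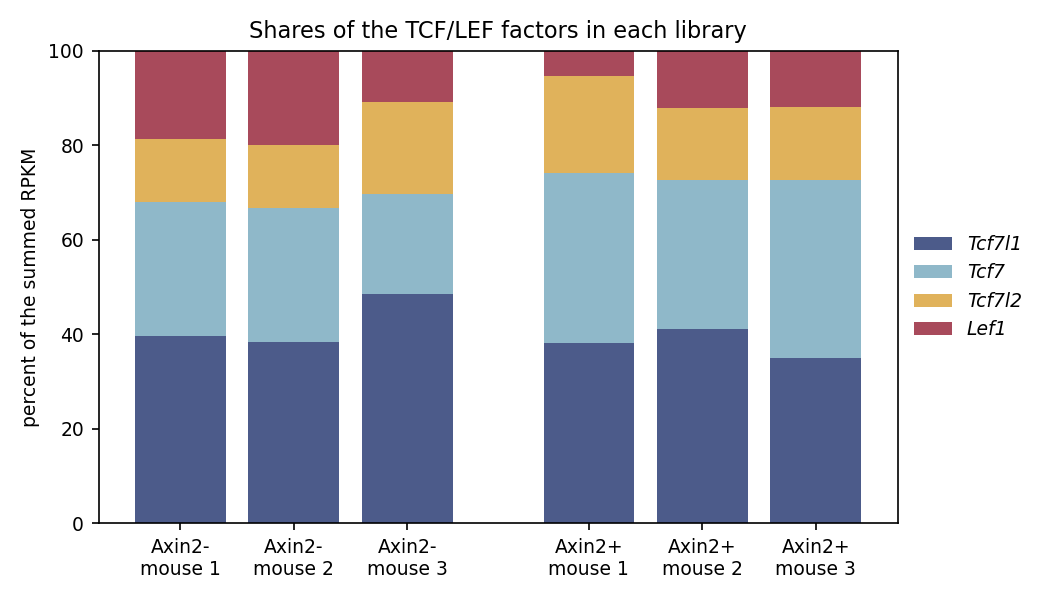
Percent of the summed RPKM of Tcf7l1, Tcf7, Tcf7l2 and Lef1 that each factor takes in each library, 3 labelled Axin2- on the left and 3 labelled Axin2+ on the right. The Tcf7 band spans 21.2 to 28.4 percent on the left and 31.5 to 37.5 percent on the right, and the Lef1 band is narrowest, at 5.38 percent, in the library labelled Axin2+ of mouse 1.

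These shares depend on the length used, since the annotated exons of Tcf7l2 and Lef1 span 8775 and 8788 bases and their longest transcripts 3715 and 3656. With the longest transcript, Tcf7l1 took 34.4 and 32.7 percent in the fractions labelled Axin2- and Axin2+, Lef1 24.96 and 15.6 percent, Tcf7l2 23.1 and 26.9 percent and Tcf7 17.5 and 24.7 percent. Tcf7 was then the lowest of the 4 in the fraction labelled Axin2-, and its difference was 7.29 percentage points. Tcf7 and Lef1 are also known to give short isoforms that lack the beta-catenin binding part, which counts per gene do not separate.

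In order of mean RPKM, the fraction labelled Axin2- ran Ctnnb1, Lrp6, Axin1, Tcf7l1, Gsk3b, Tcf7, Apc, Lef1, Tcf7l2 and Lrp5, from 71.7 to 6.51 RPKM. The libraries of neighbouring genes did not overlap between Ctnnb1 and Lrp6, Lrp6 and Axin1, or Gsk3b and Tcf7, and overlapped for all other neighbours. The fraction labelled Axin2+ ran Ctnnb1, Gsk3b, Axin1, Lrp6, Apc, Lrp5, Tcf7l1, Tcf7, Tcf7l2 and Lef1, from 104 to 3.58 RPKM. Neighbours overlapped there between Gsk3b and Axin1, Apc and Lrp5, Lrp5 and Tcf7l1, and Tcf7l1 and Tcf7. Lrp5 was thus the lowest member in one fraction and sixth in the other, at 13.4 RPKM. With the longest transcript as the length, Ctnnb1 stayed first in both fractions, Lrp5 last in that labelled Axin2- and Lef1 last in that labelled Axin2+.

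The genes around the members were counted in lists by role. Some genes, Axin2 and Rnf43 among them, are shared between lists. Counted once each, 27 of the 120 listed genes tested were higher and 22 lower. Of the other genes of the destruction complex and its regulators, 1 of 24 rose and 1 fell, against 14.5 and 12.8 percent of all genes tested, with a median log2 fold change of -0.01. Tnks2, a tankyrase that marks Axin for degradation, rose from 169 ± 4.09 to 226 ± 14.7 CPM (edgeR adjusted p = 0.0275), and Apc2, a paralog of Apc, fell from 15.1 ± 6.76 to 4.54 ± 1.14 CPM (0.0188). Neither passed when mouse 2 of the fraction labelled Axin2+ was left out (0.120 and 0.0728) or mouse 1 of that labelled Axin2- (0.0743 and 0.0652). Tnks2 also missed the threshold without mouse 3 of the former (0.0654) or with the mouse as a block (0.0542), and Apc2 without mouse 3 of the latter (0.0674). Gsk3a, the paralog of Gsk3b, had 73.3 ± 13.2 and 56.4 ± 2.38 CPM and was not called (0.103), except when mouse 3 of the fraction labelled Axin2- was left out (0.0451). The ratio of Gsk3b to Gsk3a per length was 0.752 ± 0.126 and 1.16 ± 0.135. The ratio of Axin2 to Axin1 per length was 3.03 ± 0.341 and 2.10 ± 0.707, and its libraries overlapped (exact permutation p = 0.2).

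Partners of the co-receptors and Dishevelled proteins moved both ways, with 5 of 27 higher and 9 lower against 14.5 and 12.8 percent of all genes tested, and a median of -0.13. The higher share is near that of all genes. Fzd6, a Frizzled receptor, rose from 17.9 ± 2.56 to 117 ± 18.7 CPM and Rnf43, a ligase that removes Frizzled and Lrp6 from the surface, rose from 9.79 ± 2.62 to 109 ± 10.2 CPM (edgeR adjusted p = 0.000239 each). Fzd7, another Frizzled receptor, fell from 133 ± 13.6 to 44.3 ± 1.66 CPM (edgeR adjusted p = 0.000319). Sost, which encodes sclerostin, an inhibitor that binds Lrp5 and Lrp6, gave 76 reads over the fraction labelled Axin2- and 1 over the other. Scaled to depth this is a ratio of 79.6, with an exact 95% interval of 13.9 to 3185 that covers counting error only.

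Of the nuclear coactivators 1 of 17 was higher and 2 lower, against 14.5 and 12.8 percent of all genes tested, with a median of -0.04. Smarca4, a chromatin remodelling ATPase, rose from 183 ± 12.6 to 299 ± 24.5 CPM (edgeR adjusted p = 0.00644). Tnik, a kinase that phosphorylates Tcf7l2, fell from 54.3 ± 5.09 to 33.8 ± 2.82 CPM (0.00932). Pygo1, an adaptor that binds the coactivator Bcl9, fell from 18.5 ± 2.63 to 6.60 ± 4.02 CPM (0.0379), and failed to pass in 5 of 15 other settings. These were scaling by library size alone (0.0546) and the fits without the libraries labelled Axin2- of mouse 1, 2 or 3 (0.0862, 0.0715 and 0.113) or that labelled Axin2+ of mouse 2 (0.124).

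Of the nuclear corepressors and inhibitors 5 of 20 were higher and 3 lower, against 14.5 and 12.8 percent of all genes tested, with a median of 0.21. Sox17 and Sox7, HMG box factors that can bind beta-catenin, rose from 14.97 ± 6.89 to 249 ± 62.8 CPM (edgeR adjusted p = 0.00103) and from 3.41 ± 1.37 to 33.6 ± 4.02 CPM (0.000871). Sox17 is also in the endothelial list, whose other 11 genes summed to 204 to 248 CPM in the libraries labelled Axin2- and 264 to 475 CPM in the others, and their part was not tested. Tle4, a Groucho corepressor that binds TCF/LEF factors, fell from 54.1 ± 4.07 to 26.4 ± 5.29 CPM (0.00510), and Hic1, a repressor, fell from 247 ± 20.7 to 80.4 ± 33.2 CPM (0.0101).

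Of the partners of beta-catenin at cell junctions 7 of 14 were higher and 4 lower, against 14.5 and 12.8 percent of all genes tested, with a median of 0.67. Cdh1, which encodes E-cadherin, rose from 25.6 ± 8.84 to 361 ± 61.9 CPM (edgeR adjusted p = 0.000382), Jup, which encodes plakoglobin, the closest paralog of beta-catenin, rose from 41.9 ± 5.52 to 136 ± 34.1 CPM (0.00151), and Ctnnd2, a delta-catenin, rose from 2.60 ± 0.831 to 24.2 ± 5.54 CPM (0.000646). Cdh11, a mesenchymal cadherin, fell from 418 ± 111 to 160 ± 39.8 CPM (0.00798), and Ctnna3, an alpha-catenin of muscle, fell from 5.59 ± 3.47 to 0.453 ± 0.108 CPM (0.00541). Per length, Ctnnb1 stood at 19.4, 11.1 and 10.9 times Cdh1 in mice 1, 2 and 3 of the fraction labelled Axin2- and at 1.15, 1.22 and 1.63 times in those labelled Axin2+. Against Jup it stood at 11.3, 14.3 and 8.20 times and at 3.39, 5.44 and 6.68 times. Neither ratio overlapped between fractions. Both are given as a description, since the larger rises of Cdh1 and Jup than of Ctnnb1 already largely fix that they differ. Cdh1 is itself 1 of the 15 general epithelial markers, of which the other 14 were all higher, with sums of 226 to 320.5 and 2413 to 3551 CPM in the libraries labelled Axin2- and Axin2+. Stromal fibroblast and smooth muscle markers were lower alongside Cdh11 and Ctnna3, with medians of -1.94 and -3.43, and the part of these cells was not tested.

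Of 22 Wnt/beta-catenin target genes tested 11 were higher and 3 lower, with a median of 0.66, against a median of -0.01 and 14.5 and 12.8 percent over all genes tested. Msx1, a homeobox gene, rose from 28.4 ± 5.58 to 546 ± 87.4 CPM and Ccnd1, the cyclin D1 gene, from 14.8 ± 2.72 to 162 ± 16.8 CPM (edgeR adjusted p = 0.000192 each). Myc, a growth regulator, fell from 174 ± 37.6 to 71.8 ± 8.45 CPM (0.00280), and Nkd1, a feedback inhibitor, fell from 138 ± 23.9 to 57.2 ± 18.9 CPM (0.0104). Axin2 is in this list too and did not pass (edgeR adjusted p = 0.071). General epithelial markers, with a median of 3.45 over 15 genes, and stromal fibroblast markers, with a median of -1.94 over 12, moved further in the same libraries, and their part was not tested.

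**Figure D5:**
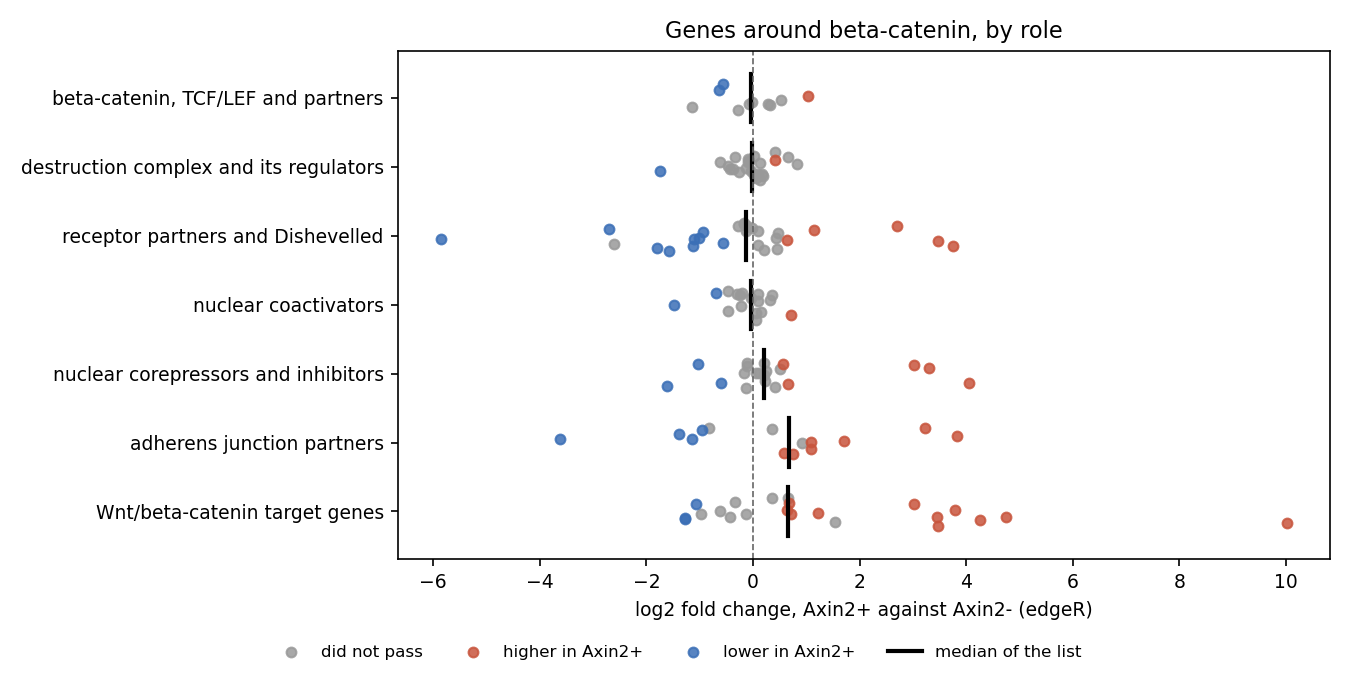
Log2 fold change (edgeR, fraction labelled Axin2+ against that labelled Axin2-) of each tested gene by role, with red points for genes that passed as higher, blue for lower and grey for those that did not pass; black bars are list medians and vertical scatter only separates points. The lists of the destruction complex and the nuclear coactivators lie close to 0, with medians of -0.01 and -0.04, and the junction partners and target genes lie wider, with medians of 0.67 and 0.66.

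Genes with the pattern most like that of a member were sought among 11084 genes over the 6 libraries, by the root mean square difference of log2(CPM + 1) after centring each gene. For Ctnnb1 they were Snw1, Snrnp35 and Prdx2 (differences of 0.0417, 0.0465 and 0.0558), and for Tcf7l1 they were Gng11, Plce1 and Rhoq (0.0343, 0.0396 and 0.0432). For Tcf7l2 they were Cnot10, Evi5l and Zfp212 (0.0330, 0.0401 and 0.0444), and for Tcf7 they were Ficd, Shmt2 and Banf1 (0.0772, 0.0814 and 0.0924). Lef1 had no gene as close, the nearest being Gdf11, Stra6 and Edil3 (0.146, 0.232 and 0.235). Gdf11, a secreted ligand of the TGF-beta family, stood at 45.6, 52.3 and 26.5 CPM in the libraries labelled Axin2- and at 6.64, 18.8 and 24.7 CPM in those labelled Axin2+. Gdf11, Stra6 and Edil3 had the same order of libraries as Lef1 within each fraction, which the search for like patterns favours.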

How the data were processed

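Total RNA of GFP-sorted cells from uterine epithelial isolates was sequenced after Ribo-Zero Gold treatment, per the labels' protocols. Raw counts per gene were deposited, made with bcl2fastq 2.20.0.422, STAR 2.5.3a and featureCounts 1.5.3 on mm10, per the submitters' processing notes. No source used here gives the annotation version or strand setting. The authors' deposited comparison table has columns of log2 values (fold change and mean CPM), an F statistic (entered as a score) and p-values with FDR, per the file headers. Its log2 fold change and FDR were quoted.

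Counts were fitted in R 4.3.3 with edgeR 4.0.16 (filterByExpr, TMM, robust quasi-likelihood F test, Benjamini-Hochberg over 16896 genes), with DESeq2 1.42.0 as an alternative. The SE is the log2 fold change over the square root of F. Tested on simulated data, the fit returned fold sizes without marked bias. It missed most changes of the size seen in the members, and made false calls above the nominal share. Far fewer genes were changed in the simulation than passed here, which makes the adjusted threshold stricter there. Its recovery and false calls, from few calls in a single run, therefore do not give those of these data. RPKM used exon lengths from GENCODE M21, found for 22479 of 26586 genes. Of 234 listed genes 226 were found as listed, 5 under an older symbol and 3 not at all. All members are named, and from each list the 2 genes with the smallest p that passed in each direction, besides Axin2, Jup, Cdh1, Gsk3a and Apc2. Pattern likeness used genes of at least 5 CPM on average and a pseudocount of 1. Members and lists were chosen with earlier results of these data known. The numbers pair the fractions by mouse, per the labels. The main fit, DESeq2 and the permutation tests took the libraries as unpaired. Across genes, the libraries of a mouse correlated in their deviations from the fraction mean at 0.32, 0.03 and -0.12 for mice 1, 2 and 3, while libraries of different mice reached 0.32, so the data themselves do not show the pairing.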

Additional observations from a re-analysis of the deposited data

How the results depend on the processing

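Counts of members depended on the settings, and the cause was not tested. Higher members numbered 4 with scaling by library size alone (Ctnnb1, Apc, Gsk3b and Lrp5), 3 in DESeq2, and 2 with at least 1 CPM in 3 libraries or without the robust prior, against 1. Lower members numbered 1 with scaling by library size, against 2. That scaling moved the median of all genes tested by 0.17 on the log2 scale. Without 1 library at a time, 1 to 2 members were higher and 1 was lower in each fit, and of the genes in the other lists 22 to 28 were higher (27 with all libraries) and 14 to 23 lower (22). The lowest count, 14, came when mouse 1 of the fraction labelled Axin2- or mouse 2 of that labelled Axin2+ was left out, and the latter lowered the calls over all genes most, to 1491 higher and 1053 lower from 2447 and 2171. These fits have fewer samples. With the mouse as a replicate block, 1 member was higher and 2 lower, and 25 and 20 genes of the other lists; Tnks2 lost its call and no other named gene changed. The sign of Tcf7, which never passed, turned with library-size scaling (0.16) and the block (0.00), and ranged from -0.18 to 0.14 without 1 library. That of Axin1 turned with library-size scaling (0.08) and ranged from -0.14 to 0.01 without 1 library; the cause was not tested. A filter of above 0.5 CPM in 3 libraries, added after seeing the data, changed no call of a member.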
